A study of Mus musculus with 4 samples.

Results

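Schwann and glial genes are the subject here: 8 genes that mark the glia of peripheral nerves and their neural crest precursors, taken from the 19938 genes of the array that at least 1 probe set names alone. They are the transcription factor genes Sox10 and Foxd3, the receptor genes Erbb3, Ngfr and Gfra3, the genes of the cytoplasmic proteins Fabp7 and S100b, and the myelin gene Mbp. They were chosen by name, each was found, and each was represented by 1 probe set. The study profiled the dermal papilla, a cluster of mesenchymal cells that sits under the hair matrix, in cells sorted from mouse skin at postnatal day 5 as positive for both Sox2GFP and integrin alpha 9. The 2 Het arrays come from mice heterozygous for Sox2, and the 2 cKO arrays from mice with a conditional knockout of Sox2; cells of both groups carried the Sox2GFP reporter used in the sort. The promoter that drives the recombinase, the background strain and the number of animals behind an array were not given in the sources used here. The labels call the arrays of a group biological replicates without saying whether these were separate animals, so a p-value here describes the spread among the 4 samples. Precision is limited by having 2 arrays per group.

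Glia of the skin derive from the neural crest. Sox10 is the transcription factor that holds the lineage together from crest cell to mature Schwann cell, ErbB3 is the receptor through which axonal neuregulin keeps Schwann cells alive, and Mbp belongs to the late program of myelination. Sox2 is itself expressed in immature Schwann cells, where it is known to hold back myelination, as well as in dermal papillae and in Merkel cells. Melanocytes come from the same crest lineage and share Sox10 and Erbb3 with glia.

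Every value is a log2 value relative to the probe set's median over the 4 arrays, so it shows differences between arrays and no expression level. Whether a gene was detected, and whether glial or papilla markers were high or low in absolute terms, therefore cannot be read from these data, and levels of different genes are not compared. The targeted gene Sox2 was lower in both cKO arrays, at -0.87 and -0.94 against 0.96 and 0.87 in Het (difference -1.81 ± 0.06 SE, limma adjusted p = 0.345 over all genes). The position of its probe set relative to the deleted part was not examined. Itga9, the integrin of the sort, stood at 0.19 and -0.06 in Het and at -0.21 and 0.06 in cKO, with overlapping groups.

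Of the 8 genes, Fabp7 had the largest difference between the genotypes, and none of the other 7 had one of that size. Erbb3 shared its direction with separated groups, at -0.12. A gene that was not detected could not have moved with Fabp7, and detection cannot be read from these values. Both cKO arrays had less Fabp7 signal than either Het array, and the log2 difference was -0.82. S100b varied more than Fabp7 over the arrays but along another line, and the remaining 6 genes had differences no larger than 0.12 in size. None of the 8 passed limma's test adjusted over all genes, where the background share of genes passing was 0%. Fabp7 alone had an unadjusted p under 0.05, which 5.28% of all genes had. Groups did not overlap for 3 of the 8, Fabp7 and Erbb3 lower in cKO and Gfra3 higher, against 33.5% of all genes (15.6% lower and 17.8% higher), so the count of separated genes is near the background. The median difference of the 8 was -0.03 and that of all genes 0.00339. The sorted cells were measured in bulk, so fewer cells of a type and less of an RNA per cell cannot be told apart.

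Fabp7, the brain-type fatty acid binding protein of radial glia and of Schwann cell precursors, had values of 0.36 in Het replicate 1 and 0.38 in Het replicate 2, against -0.36 in cKO replicate 1 and -0.55 in cKO replicate 2. The Het arrays lay close together and the cKO arrays further apart, with a wide gap between the groups. Subtracting Het from cKO gave -0.82 ± 0.08 (SE, 2 arrays in each group), a 1.76-fold lower value, with an SD of 0.02 within Het and 0.14 within cKO. Its unadjusted p of 0.00100 became 0.897 adjusted over all genes (limma). By the size of the difference Fabp7 ranked 47 of 19938 genes, and 37 genes, itself included, were lower in cKO by at least as much. Leaving out any 1 array gave differences between -0.92 (without cKO replicate 1) and -0.72 (without cKO replicate 2).

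S100b, the calcium-binding protein by which Schwann cells are commonly stained, had the widest range of the 8 over the arrays, and its groups overlapped. It stood at 0.72 and -0.24 in Het and at 0.24 and -0.49 in cKO. Replicate 1 was above replicate 2 in both groups, by 0.96 in Het and by 0.74 in cKO, and both gaps were larger than the difference between the groups, which was -0.36 ± 0.46 (SE, limma adjusted p = 0.992). Without Het replicate 1 the difference turned to 0.12, and without cKO replicate 2 it was 0.00429, so its sign depended on the array left out. Leaving out 1 array also unbalances the replicate numbers, between which S100b differed widely. Within each number cKO was lower than Het, at 0.24 against 0.72 and at -0.49 against -0.24. With the replicate number as a block, the limma adjusted p was 0.55.

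Fabp7 and S100b are the 2 members with the widest ranges over the arrays, and the bases upstream of their starts are shown because the deleted gene encodes a SOX factor. Capitals mark ACAAT, 1 form of the SOX core motif, or its reverse complement ATTGT. The sequences are from RefSeq (GRCm38.p6), cover the 250 bases before the start of transcription and read 5′ to 3′ on the gene's own strand, which is the plus strand for both. Fabp7 lies at chr10:57784673-57784922 and S100b at chr10:76253586-76253835.
Fabp7: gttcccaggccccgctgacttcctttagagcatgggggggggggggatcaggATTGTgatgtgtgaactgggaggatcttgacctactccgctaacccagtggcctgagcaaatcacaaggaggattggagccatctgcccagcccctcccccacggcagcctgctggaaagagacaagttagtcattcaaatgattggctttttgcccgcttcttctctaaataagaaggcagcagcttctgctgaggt
S100b: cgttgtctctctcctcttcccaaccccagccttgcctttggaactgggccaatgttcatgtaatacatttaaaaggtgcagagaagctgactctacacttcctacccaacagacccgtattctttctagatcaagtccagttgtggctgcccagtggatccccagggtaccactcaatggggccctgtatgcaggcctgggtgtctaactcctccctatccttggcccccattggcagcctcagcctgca
The Fabp7 window held 1 such motif, beginning 198 bases before the start, and the S100b window 0. Of 32851 RefSeq promoter windows of the same length, 27.7% held ACAAT or ATTGT. Another form of the motif searched for separately, ACAAAG or its reverse complement CTTTGT, was in neither window and in 16.5% of all. Letter matches of this kind describe the window and say nothing about binding.

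Both transcription factor genes had overlapping groups. Sox10 stood at -0.04 and 0.20 in Het and at 0.04 and -0.09 in cKO, with Het replicate 2 above the other arrays. The difference was -0.11 ± 0.11 (limma adjusted p = 0.988), and without Het replicate 2 it was 0.0101. Foxd3, a forkhead factor of the neural crest and early glia, stood at -0.09 and 0.01 in Het and at 0.11 and -0.01 in cKO. Here cKO replicate 1 was highest and Het replicate 1 lowest, and the difference was 0.09 ± 0.07 (limma adjusted p = 0.985).

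The 3 receptor genes differed by small amounts and not in 1 direction. Erbb3, the neuregulin receptor, stood at 0.09 and 0.02 in Het and at -0.02 and -0.11 in cKO. It was the other member whose groups separated with cKO lower, at -0.12 ± 0.06 (limma adjusted p = 0.958), but the nearest arrays of the 2 groups, Het replicate 2 and cKO replicate 1, were close together. Ngfr, which encodes the p75 neurotrophin receptor of crest cells and Schwann cells that do not myelinate, stood at -0.10 and 0.01 in Het and at -0.01 and 0.10 in cKO. The groups overlapped, and the difference was 0.09 ± 0.07 (limma adjusted p = 0.985). Gfra3, the co-receptor through which artemin signals to Ret, stood at -0.12 and -0.01 in Het and at 0.03 and 0.01 in cKO. Both cKO arrays were above both Het arrays, by a difference of 0.09 ± 0.06 (limma adjusted p = 0.982), with Het replicate 1 lying apart from the other arrays. Without that array the difference was 0.03, and without Het replicate 2 it was 0.14.

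Mbp, the myelin basic protein gene, varied least of the 8. It stood at -0.05 and 0.01 in Het and at -0.01 and 0.04 in cKO, and the difference was 0.04 ± 0.04 with overlapping groups (limma adjusted p = 0.992). Its range over the arrays was 0.09, below the median range of all genes, 0.14. The ranges of Gfra3, Foxd3, Ngfr, Erbb3 and Sox10 ran from 0.15 to 0.29, between percentiles 53.1 and 75.3 of all genes. The ranges of Fabp7 and S100b were 0.93 and 1.21, at percentiles 98.6 and 99.5.

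**Figure D1:**
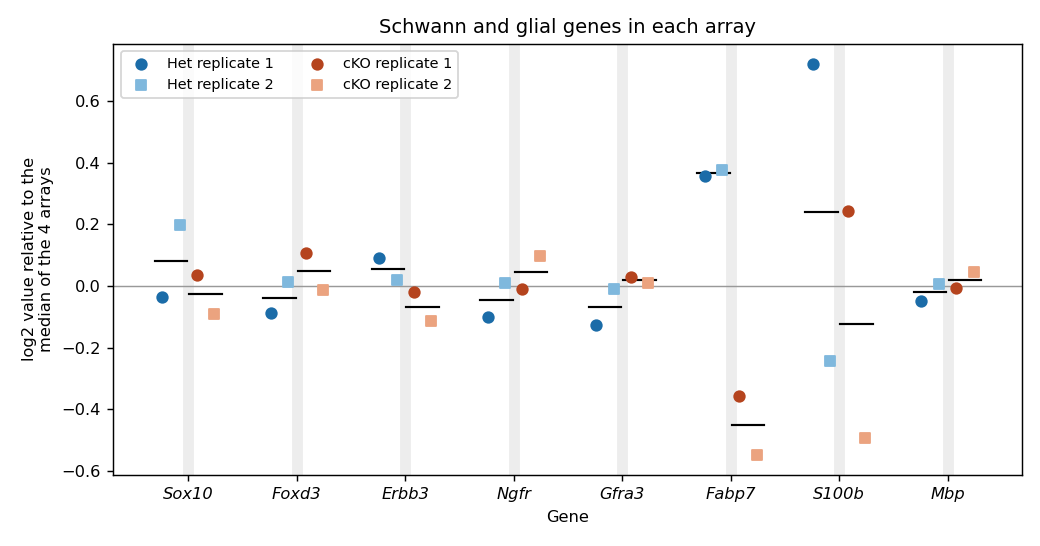
Values of the 8 Schwann and glial genes in each of the 4 arrays, as log2 values with the 4-array median of each gene at 0. Points are single arrays and black lines are group means (n = 2); Fabp7 lies at 0.36 and 0.38 in Het against -0.36 and -0.55 in cKO, S100b is higher in replicate 1 of both groups, and the other 6 genes stay within 0.2 of 0.

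Set against each of the other members within the same array, Fabp7 stood apart in the same way from all but S100b. Fabp7 minus Sox10 was 0.39 and 0.18 in Het and -0.39 and -0.46 in cKO. Fabp7 minus Erbb3, the member nearest to it in direction, was 0.26 and 0.36 in Het and -0.34 and -0.43 in cKO. The other members apart from S100b had ranges over the arrays from 0.09 (Mbp) to 0.29 (Sox10). Subtracting values that vary so little could not remove the gap of Fabp7 between 0.36 and -0.36. These contrasts therefore restate the difference of Fabp7 itself. For Foxd3, Ngfr, Gfra3 and Mbp the difference between the groups in Fabp7 minus the gene lay between -0.91 and -0.86, with separated groups. Fabp7 minus S100b was -0.37 and 0.62 in Het and -0.60 and -0.06 in cKO, and these overlapped.

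The mean of the other 7 genes was 0.06 and -0.00118 in Het and 0.05 and -0.08 in cKO. S100b, with the widest range of them, weighs most in that mean, which has the array order of S100b. The remaining 6 genes stayed within 0.2 of 0 in every array. Fabp7 minus that mean was 0.30 and 0.38 in Het and -0.41 and -0.47 in cKO, a difference of -0.78 with SDs of 0.06 and 0.04 within the groups. Left out in turn, the arrays moved it between -0.82 and -0.74. The genes were chosen with earlier results of these arrays known and 4 arrays are too few for a correlation, so no test of this contrast is given. Of the other 7 genes 4 were higher and 3 lower in cKO, and none of them combined separated groups with a difference of the size seen for Fabp7.

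**Figure D2:**
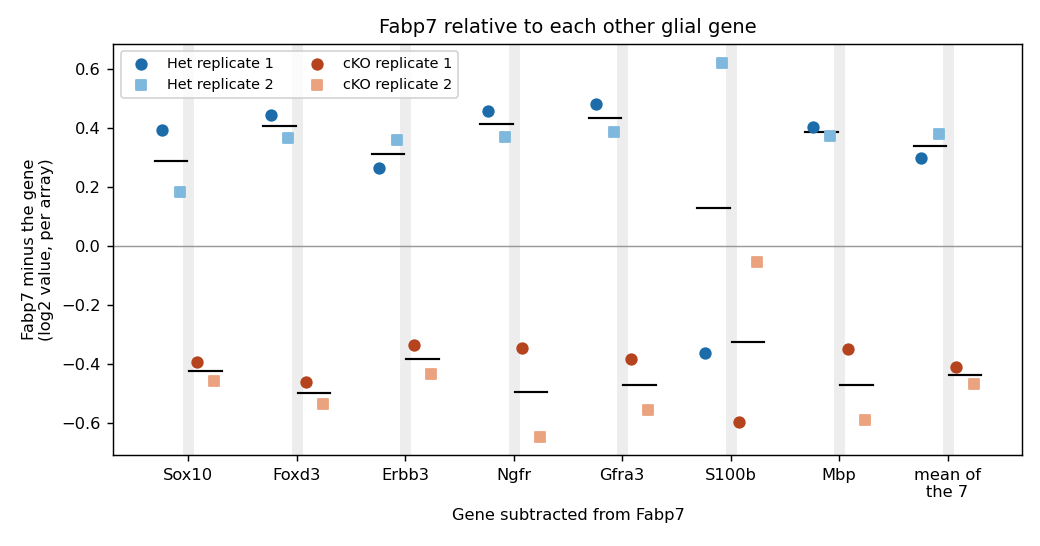
Fabp7 minus each of the other 7 genes, and minus their mean, within each array (log2). Points are arrays and black lines group means (n = 2); the Het arrays lie above 0 and the cKO arrays below 0 for every comparison except S100b, where Het replicate 1 is at -0.37.

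Genes of the same cells outside the 8 gave a divided picture. Of the 16 other Schwann lineage genes listed, 15 were measured, 7 higher and 8 lower in cKO, and none passed over all genes (limma). The groups did not overlap for 5, with 3 higher and 2 lower, against 33.5% of all genes. The median difference was -0.02 and had no stable sign, turning to 0.02 with quantile normalization, to 0.01 without Het replicate 1 and to 0.01 without cKO replicate 2. Egr2, the zinc finger factor that directs myelination and is also an immediate early gene, stood at 0.48 and 0.69 in Het and at -0.48 and -1.05 in cKO. It shared the direction of Fabp7 in all arrays, with a difference of -1.35 ± 0.23 (limma adjusted p = 0.897). Tfap2a, an AP-2 factor gene of neural crest and epidermis, stood at 0.10 and 0.29 in Het and at -0.10 and -0.36 in cKO, a difference of -0.42 ± 0.13. Zeb2, a factor required for Schwann cell differentiation, lay the other way, at -0.09 and -0.12 in Het and 0.09 and 0.31 in cKO (0.30 ± 0.09). Dhh, the hedgehog ligand made by Schwann cells, was at 0.08 ± 0.04 with cKO higher.

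The measured myelin genes other than Mbp had differences from -0.22 to 0.19. Of 14 listed 12 were measured, 9 of them higher and 3 lower, with a median of 0.04. The groups did not overlap for 7 genes, 6 of them higher in cKO and 1 lower, against 17.8% and 15.6% of all genes, and none passed over all genes (limma). Gldn, whose product gliomedin gathers sodium channels at nodes, had a difference of 0.19 ± 0.06. Pllp, the plasmolipin gene, was at 0.10 ± 0.05, Drp2, of the dystroglycan complex in the Schwann cell membrane, at 0.09 ± 0.03, and Ugt8a, the enzyme that makes galactocerebroside, at 0.08 ± 0.04. These 4 values are in the direction opposite to Fabp7. The ranges of Pllp, Drp2 and Ugt8a over the arrays lay between percentiles 33.9 and 52.5 of all genes, and that of Gldn at 75.0. Cldn19, a claudin gene, was the 1 separated gene lower in cKO, at -0.06 ± 0.04. Pmp22, a peripheral myelin protein gene also expressed widely outside nerve, had the largest difference of the list in size, -0.22 ± 0.44, and its groups overlapped. Both were named after their values were seen.

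**Figure D3:**
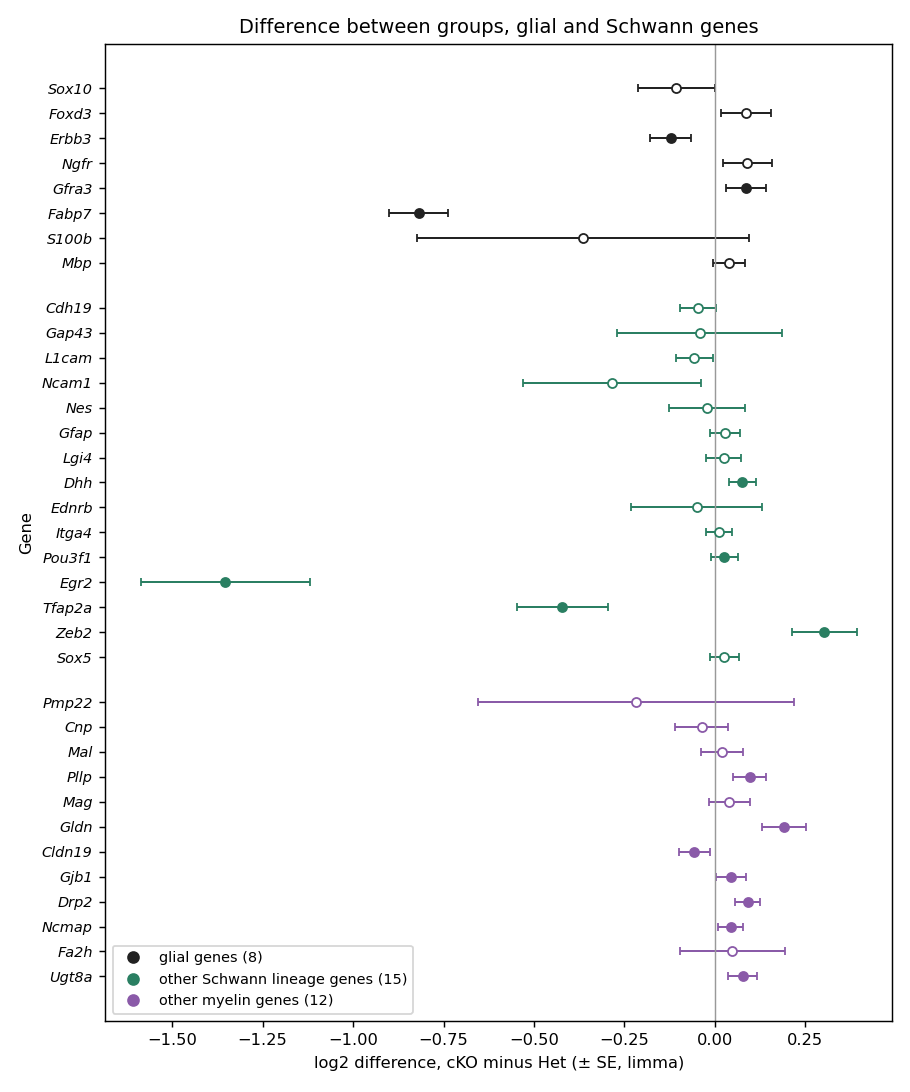
Difference between the groups (cKO minus Het, log2, ± SE from limma, n = 2 arrays per group) for the 8 glial genes, 15 other Schwann lineage genes and 12 other myelin genes. Filled points have groups that do not overlap and open points overlap; Egr2 at -1.35 and Fabp7 at -0.82 lie furthest from 0.

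The ligands and partner receptors of the 3 receptors gave 18 measured genes of 21, with 6 higher and 12 lower in cKO, a median of -0.00939 and none past the threshold over all genes (limma). Groups separated for 6 genes, 2 higher and 4 lower, against 33.5% of all genes. Erbb2, the kinase partner of ErbB3, stood at -0.02 and 0.02 in Het and at 0.07 and -0.41 in cKO, so that cKO replicate 2 alone was low. Nrg1, the gene of the ligand neuregulin 1, was at 0.03 ± 0.04, and the Gfra3 partners Ret and Artn were at 0.00 ± 0.04 (-0.000694) and -0.01 ± 0.05, each with overlapping groups. Larger values were those of Ntrk3, the neurotrophin 3 receptor, at -0.27 ± 0.10, and of Gfra2, the neurturin co-receptor, at -0.19 ± 0.06, both lower in each cKO array. The ErbB4 ligand gene Nrg3 was at 0.17 ± 0.11 and the neurotrophin gene Ntf5 at -0.08 ± 0.05, again with separated groups.

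The other fatty acid binding protein genes did not share the value of Fabp7. All 9 were measured, 7 were higher and 2 lower, the groups separated for 2 (33.5% of all genes), and the median was 0.00427. Pmp2, which encodes the P2 protein of peripheral myelin, stood at -0.04 and -0.03 in Het and at 0.03 and 0.05 in cKO. That was a difference of 0.08 ± 0.04 in the direction opposite to Fabp7, and the range of Pmp2 was at percentile 31.8 of all genes. Fabp9 was at 0.01 ± 0.04. The 7 higher genes had differences of at most 0.08. The 2 lower genes, Fabp4 and Fabp5, shared the direction of Fabp7 and had the widest ranges of the 9, with overlapping groups. Fabp4, the adipocyte form, had the lowest value of the 9, at -0.24, and stood at 0.49 in Het replicate 2 alone. Fabp5 was at -0.17 and was also highest in Het replicate 2, at 0.27. Both were named after their values were seen.

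The array order of S100b, Het replicate 1 highest, then cKO replicate 1, Het replicate 2 and cKO replicate 2, was looked for after its values were seen. It was found in 0 of the other 7 members, in 3 of 45 measured genes of the Schwann lineage, myelin and ligand lists, and in 6.07% of all genes. The 3 were Pmp22, at 0.47 and -0.30 in Het and 0.30 and -0.56 in cKO, together with Ncam1 and the Gdnf co-receptor gene Gfra1. The share is close to that of all genes.

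Over all genes, those nearest to Fabp7 by the root mean square distance of the 4 array values were Ccnd2, Tbcb, Krtap8-1, Snapc5, Anxa2 and Znhit6, in that order. None of them was among the 8 members or the 45 measured genes of the Schwann lineage, myelin and ligand lists. Those are few of the 19938 genes, so this absence says little. Ccnd2, the cyclin D2 gene, was at a distance of 0.01, with 0.35 and 0.38 in Het and -0.35 and -0.57 in cKO. Tbcb, a tubulin folding cofactor gene, followed at 0.05, and the other 4 lay between 0.0763 (Krtap8-1) and 0.0842 (Znhit6), with differences from -0.86 for Anxa2, the annexin A2 gene, to -0.71 for Znhit6. These 6 genes were selected for this pattern, so their values are a description over 4 arrays.

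Among markers of other cell types that the sort could hold, those of melanocytes, keratinocytes and fibroblasts had their highest medians in Het replicate 2. So did those of smooth muscle and dermal sheath, by less, at 0.04 against 0.01 in Het replicate 1. The melanocyte markers had a median of 0.14 in that array against -0.07 in Het replicate 1, and -0.04 and 0.05 in cKO; none of the 10 had separated groups. Mlana, a melanosome protein gene named after its value was seen, stood at -0.595 and 1.14 in Het and at -0.65 and 0.595 in cKO. It was thus high in replicate 2 of both groups. Sox10, which melanocytes share with glia, was highest in Het replicate 2, at 0.20, and lowest in cKO replicate 2, at -0.09. Erbb3, which they also share, was highest in Het replicate 1, at 0.09, and stood at 0.02 in Het replicate 2. The part of melanocytes in these values was not tested. The keratinocyte markers had a median of 0.39 in Het replicate 2 against -0.10 in Het replicate 1, and -0.03 and 0.01 in cKO, with 10 of 11 lower in cKO. The median difference of that list was -0.13, and it turned to 0.04 without Het replicate 2 and was -0.43 without Het replicate 1. Tfap2a, which epidermis also expresses, was highest in Het replicate 2 too, and the part of keratinocytes in its value was not tested.

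Of the fibroblast markers 7 of 7 were lower in cKO, 4 of them with separated groups (15.6% of all genes were separated and lower). The list had medians of 0.10 and 0.33 in the Het arrays and of -0.05 and -0.10 in the cKO arrays. Lum, the lumican gene, was at -0.54 ± 0.12 and Col1a2, a collagen I gene, at -0.37 ± 0.21. The part of fibroblasts in the Fabp7 value was not tested. The papilla markers were divided, 9 higher and 9 lower, with Vcan, the versican gene, at -0.77 ± 0.26 and Wif1, a secreted WNT inhibitor, at 0.75 ± 0.22.

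The neuronal markers, which bear on nerve fibres in the sort, had list medians between -0.02 and 0.02 over the arrays. Of 11 genes 7 were higher and 4 lower in cKO, and groups separated for 2 (33.5% of all genes). These 2 were Snap25, at 0.06 ± 0.04, and Pou4f1, at 0.03 ± 0.04. Of the Merkel cell markers 3 of 8 were higher and 5 lower, with a median difference of -0.00131. Groups separated for 1 of them (33.5% of all genes), Piezo2, the mechanosensitive channel gene, at 0.38 ± 0.13. Endothelial and immune lists had medians of 0.00908 and 0.02. The smooth muscle and dermal sheath markers had 6 of 7 genes lower and a median of -0.07. No gene of any marker list passed over all genes (limma).

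**Figure D4:**
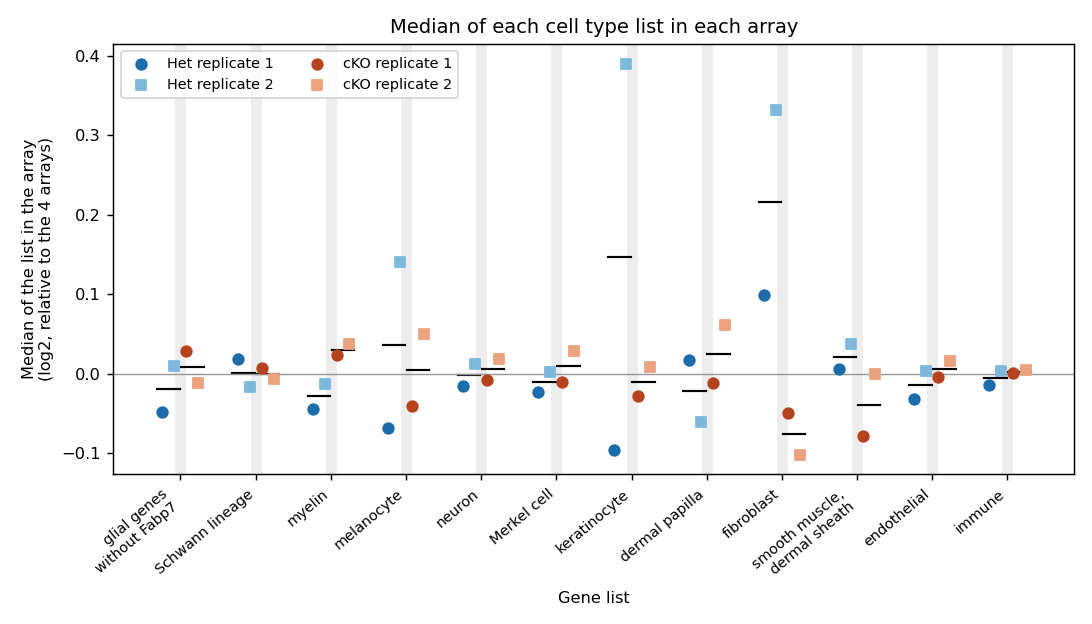
Median of each gene list in each array (log2, relative to the median of the 4 arrays); points are arrays and black lines the means of the 2 arrays of a group. Keratinocyte, melanocyte and fibroblast lists stand highest in Het replicate 2, at 0.39, 0.14 and 0.33, as does the smooth muscle and dermal sheath list at 0.04. The 7 glial genes other than Fabp7 and the Schwann lineage and myelin lists lie between -0.05 and 0.04 in all arrays.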

How the data were processed

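The deposited values are 1 column per array of log2 values that the authors made with RMA, per the submitters' processing notes; the log base is not stated and was taken as 2, while the software, the build and how values were centred are not given here by any source. Each of 28853 probe sets had a median of 0 over the 4 arrays within 1e-06, so dim probe sets could not be filtered. Of them 21789 named 1 gene, and their mean per gene gave 19938 genes. Groups were compared with limma 3.58.1 in R 4.3.3 (group as the only term, default prior, two-sided, 2 residual degrees of freedom) with Benjamini-Hochberg adjustment over all genes at 0.05; SEs are from this fit, which was tested on simulated data. Lists are given by counts and medians.

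Members, lists and tests were chosen with earlier results of these data known. Genes named were the 8 members; Sox2 and Itga9; the largest differences with separated groups in each pathway list (up to 4) and marker list (up to 2); the 6 genes nearest to Fabp7; and Egr2, Erbb2, Nrg1, Ret and Artn. Some genes of the lists and of this rule are not reported here. Alternatives were array centring, quantile normalization, a replicate block, a robust prior, an unmoderated statistic, medians over probe sets, single probe sets, and each array left out. Promoters came from a RefSeq table holding 4 of the 8 members. Figures were drawn with matplotlib 3.10.9.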

Additional observations from a re-analysis of the deposited data

How the results depend on the processing

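None of the 8 glial genes, and none of the 140 listed genes, passed limma's test in any alternative that was run on them (11 and 8 alternatives). Fabp7 stayed lower in cKO in all 11, but not all of them could move its difference. It was fixed at -0.82 under the block, the robust prior, the unmoderated statistic and both probe set settings, as Fabp7 has 1 probe set. Array centring shifts all genes alike and gave -0.823. Quantile normalization gave -0.758, and leaving out single arrays gave values between -0.92 and -0.72. Reversed signs occurred for S100b without Het replicate 1 (0.12) and without cKO replicate 2 (0.00429), its range over arrays left out being -0.85 to 0.12, and for Sox10 without Het replicate 2, its range being -0.22 to 0.0101; the cause was not tested. Of 91 list medians 18 moved by more than the spread between replicates. Differences of the small members moved with single arrays but kept their sign: Erbb3 lay between -0.17 and -0.07, Foxd3 between 0.03 and 0.15, Ngfr between 0.03 and 0.14, Gfra3 between 0.03 and 0.14, and Mbp between 0.01 and 0.07. Sox2 stayed between -1.86 and -1.77. With the replicate number as a block, the difference of Fabp7 was -0.82 (limma adjusted p = 0.514) and of Sox2 -1.81, and 0 of the 8 genes passed. Such a block cannot change a difference when each number occurs once in each group, only its p-value. The labels do not say that a number marks a shared litter or day; the correlation of the within-group differences between replicates 1 and 2 was 0.304 over genes, from 2 pairs, and the block changed no call. With 2 arrays per group, a difference that did not pass is not shown to be absent.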
